A study of Mus musculus with 8 samples.

Results

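Aurora and Polo kinases drive mitosis, and 9 genes of this module were followed here out of 19938 genes with a value: the kinase genes Aurka, Aurkb, Plk1 and Nek2, the Aurora A activator gene Tpx2, the genes Incenp, Birc5 and Cdca8, whose proteins hold Aurora B in the chromosomal passenger complex, and the transcription factor gene Foxm1. They were chosen by name. Each was taken from rows of the array whose annotation gives exactly 1 symbol, and each of the 9 had a single such row. RNA had been hybridised to 8 Affymetrix Mouse Gene 1.0 ST arrays, single-colour arrays that read transcripts along their length, and values are log2 intensities, so that a difference of 1 is 2-fold. The samples were primary mammary tumors, below 1.0 cm in diameter, of FvB mice of the MMTV-Neu genotype, in which a mammary tumor virus promoter drives the Neu (rat Erbb2) receptor in mammary epithelium. No sample lacked the transgene. From each tumor, sorting gave a fraction with tumor-initiating cells (TIC, 4 arrays) and a CD24- fraction described as not tumor-initiating (4 arrays). The tumors were N251, N260, N283 and a pool in equal parts of N222 and N229, so that each tumor or pool gave a pair of arrays. The titles were followed where the growth protocol spells the names of 2 tumors differently. The labels used here give no age or treatment of the mice and do not name the markers that defined the TIC gate.

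Aurora A acts at centrosomes and on spindle microtubules, where Tpx2 binds and activates it. Aurora B works from the chromosomal passenger complex, in which Incenp is the scaffold and activator, and survivin (Birc5) and borealin (Cdca8) bring the complex to centromeres. Plk1 matures centrosomes and promotes entry into and exit from mitosis, Nek2 separates centrosomes, and Foxm1 activates many genes of G2 and mitosis. Transcripts of these genes are known to peak late in the cell cycle and to be low in resting cells. In RNA of a whole fraction, fewer cells that express a gene and less of its RNA per cell cannot be told apart.

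Promoters of late cell-cycle genes are known for CCAAT boxes, bound by NF-Y, and for the cell-cycle genes homology region, TTTGAA, bound by the MuvB complex with which Foxm1 works. The promoters of the module are shown as a description. Its members moved together between arrays, as described below, and whether the motifs bear on this was not tested. The RefSeq promoter table of build GRCm38.p6 held windows from 250 bases before to 50 bases from the start for 5 of the 9 members, Aurka, Plk1, Nek2, Cdca8 and Birc5. CCAAT, on either strand, was present in 4 of these windows, against 37.4% of all 32851 windows of this length in the table. TTTGAA, on either strand, was present in 3, against 17.9% of all windows, and the same 3 held both motifs, against 7.0%. The Birc5 window held neither motif, and that of Nek2 held CCAAT without TTTGAA. The forkhead core TAAACA was present in 0 of the 5 windows, against 13.4% of all. The 100 bases before the start are printed from 5′ to 3′ on the gene's strand, with CCAAT in capitals, which reads ATTGG where the box lies on the other strand. The windows lie at chr2:172370571-172370670 on the minus strand (Aurka), chr7:122159335-122159434 on the plus strand (Plk1), chr1:191821373-191821472 on the plus strand (Nek2) and chr4:124936918-124937017 on the minus strand (Cdca8).
Aurka: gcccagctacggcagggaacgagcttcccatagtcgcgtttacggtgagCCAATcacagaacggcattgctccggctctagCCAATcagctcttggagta
Plk1: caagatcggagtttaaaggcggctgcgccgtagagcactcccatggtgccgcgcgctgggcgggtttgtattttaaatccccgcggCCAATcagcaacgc
Nek2: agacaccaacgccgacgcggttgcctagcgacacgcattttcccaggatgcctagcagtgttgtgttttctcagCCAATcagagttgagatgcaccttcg
Cdca8: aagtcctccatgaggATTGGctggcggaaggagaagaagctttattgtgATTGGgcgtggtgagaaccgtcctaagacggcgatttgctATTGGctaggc

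In Aurka and Plk1 TTTGAA lay on the gene's strand shortly after the start, with its first base at position 33 and 31, counted from 1 at the start, and it overlapped no CCAAT match there. The 30 bases around it are printed with the motif in capitals, at chr2:172370521-172370550 on the minus strand (Aurka) and chr7:122159453-122159482 on the plus strand (Plk1).
Aurka: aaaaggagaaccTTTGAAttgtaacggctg
Plk1: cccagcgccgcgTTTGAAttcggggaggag

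These matches describe the letters of the windows, and binding was not measured.

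Transcripts of 8 of the 9 members were higher in the TIC fraction than in the CD24- fraction of every tumor, by 1.49-fold (Birc5) to 2.08-fold (Aurkb) on average, whereas Incenp was not. Over all genes, 23.2% were higher in the TIC fraction in all 4 tumors. The mean difference of the 9 members was 0.78 ± 0.20 on the log2 scale (SD over 4 tumors), with 1.08 in N283, 0.73 in N260, 0.72 in the pool and 0.61 in N251. Their median difference was 0.85, where the median of all genes was 0.04. In limma's test without the tumor, 0 of the 9 members passed a Benjamini-Hochberg adjusted p of 0.05 (adjusted p from 0.258 to 0.850), with a background of 0.0502% of all genes called higher. At an unadjusted p under 0.05, 7 of the 9 passed, against 8.02% of all genes on the higher side.

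With the tumor as a replicate block, which compares the fractions within each tumor, 8 of the 9 members rose and 0 fell (limma adjusted p from 0.0253 to 0.0456), where 0.863% of all genes were called higher. The standard errors of these 8 differences were 0.27 to 0.42 without the block and 0.085 to 0.131 with it. With the tumor as a random block 3 members passed, Aurka, Cdca8 and Plk1 (2.16% of all genes called higher), and the other five rising members had adjusted p-values up to 0.0918. The blocked calls rest on few pairs. Leaving out tumor N251 gave 8 called members, with 1.81% of all genes called higher, and leaving out the pool gave 4, with 0.371%. Leaving out N260 or N283 gave 0, settings in which the blocked fit called 0 genes in all.

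**Figure D1:**
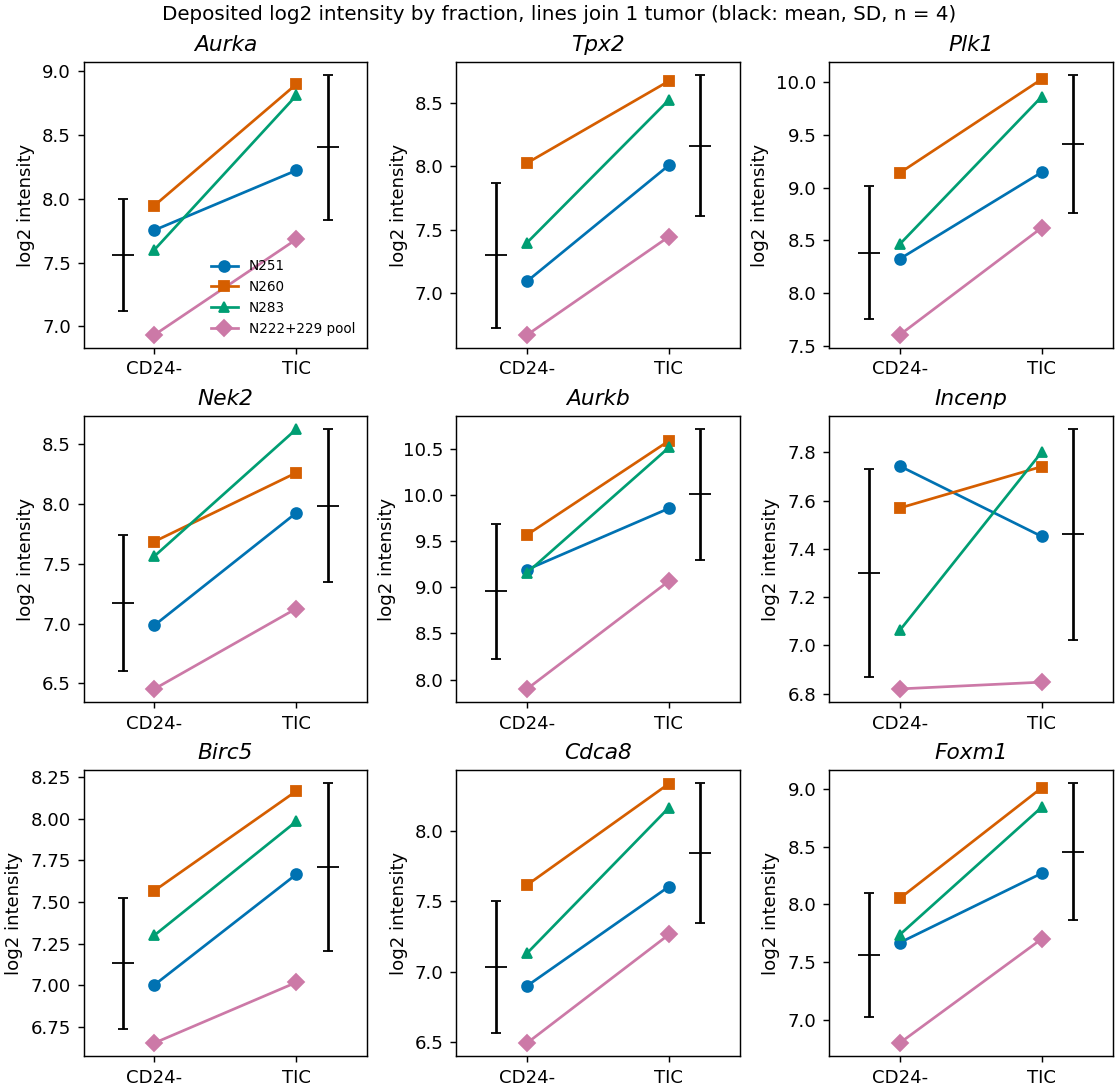
Deposited log2 intensity (y axis) of each member in the CD24- and TIC fractions (x axis), with a line joining the 2 arrays of a tumor and black bars for the mean ± SD of 4 arrays. The lines rise in all 4 tumors for 8 genes, the N222 and N229 pool lies lowest in both fractions for all 9, and Incenp falls from 7.74 to 7.45 in N251.

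Aurka, which encodes Aurora A, was at 8.22, 8.90, 8.81 and 7.68 in the TIC arrays of N251, N260, N283 and the pool, and at 7.75, 7.95, 7.60 and 6.93 in the CD24- arrays in the same order. The groups overlapped because the pool's TIC array lay under 2 of the CD24- arrays. The difference of 0.85 ± 0.30 (SE) was 1.80-fold (limma adjusted p = 0.259, 0.0456 with the block and 0.0498 with the random block). It ranged from 0.47 in N251 to 1.21 in N283. For this and later genes, the ± after a difference is the SE of the fit without the block. The SE within tumors, from the fit with the replicate block, was smaller (0.13 for Aurka).

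Tpx2, the spindle protein that switches on Aurora A, was at 8.01, 8.68, 8.53 and 7.44 in the TIC arrays and at 7.09, 8.03, 7.40 and 6.67 in the CD24- arrays, with tumors in the order given for Aurka. Every TIC array was above the CD24- array of its own tumor, and the CD24- array of N260 was above the TIC arrays of N251 and the pool. The difference was 0.87 ± 0.33, or 1.83-fold (limma adjusted p = 0.292, 0.0260 with the block and 0.0550 with the random block).

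Plk1, the Polo kinase of mitotic entry, was at 9.15, 10.03, 9.86 and 8.62 in the TIC arrays and at 8.32, 9.14, 8.46 and 7.60 in the CD24- arrays. N260 was highest and the pool lowest in both fractions. The difference of 1.03 ± 0.38 was 2.04-fold (limma adjusted p = 0.272, 0.0253 with the block and 0.0477 with the random block). It was 1.40 in N283 and between 0.82 and 1.02 in the other tumors.

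Nek2, the kinase of centrosome separation, was at 7.93, 8.26, 8.63 and 7.13 in the TIC arrays and at 6.99, 7.69, 7.56 and 6.45 in the CD24- arrays. N283 was highest in the TIC fraction and N260 in the CD24- fraction. The difference of 0.81 ± 0.36 was 1.76-fold (limma adjusted p = 0.347, 0.0316 with the block and 0.0776 with the random block).

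Aurkb, which encodes Aurora B, had the largest difference of the 9 members in these arrays, 1.05 ± 0.42 or 2.08-fold (limma adjusted p = 0.307, 0.0269 with the replicate block and 0.0601 with the random block). It was at 9.86, 10.59, 10.52 and 9.07 in the TIC arrays and at 9.19, 9.57, 9.16 and 7.90 in the CD24- arrays. The TIC array of the pool was under the CD24- arrays of the other three tumors, although it exceeded its own CD24- partner by 1.17. Among the other tumors the difference ran from 0.66 in N251 to 1.36 in N283.

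The partners of Aurora B in the passenger complex did not all follow it. Cdca8 (borealin) was at 7.61, 8.34, 8.17 and 7.26 in the TIC arrays and at 6.90, 7.62, 7.13 and 6.49 in the CD24- arrays. Its difference of 0.81 ± 0.29 was 1.75-fold and was even between tumors, from 0.71 to 1.03 (limma adjusted p = 0.258, 0.0253 with the block and 0.0429 with the random block). Birc5 (survivin), which also inhibits apoptosis, was at 7.67, 8.17, 7.98 and 7.02 in the TIC arrays and at 7.00, 7.57, 7.30 and 6.65 in the CD24- arrays. Its difference was smaller, 0.58 ± 0.27 or 1.49-fold, with 0.36 in the pool and 0.60 to 0.68 in the other tumors (limma adjusted p = 0.377, 0.0424 with the block and 0.0918 with the random block).

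Incenp, the scaffold that activates Aurora B, was at 7.45, 7.74, 7.80 and 6.85 in the TIC arrays and at 7.74, 7.57, 7.06 and 6.82 in the CD24- arrays. Its sign was not the same in all tumors: the TIC array was lower by 0.29 in N251, nearly level in the pool (0.03), and higher by 0.17 in N260 and 0.74 in N283. The mean difference of 0.16 ± 0.26 was not called (limma adjusted p = 0.850, and 0.617 with the block), with a 95% interval in the blocked fit from -0.25 to 0.58. Without tumor N283 the mean was -0.03. In each of the 4 tumors the Incenp difference lay under the mean of the other eight members, by 1.01 (N251), 0.62 (N260), 0.39 (N283) and 0.77 (pool). This contrast was chosen after the values were seen, and 4 pairs cannot give a two-sided exact p below 0.125, so it was not tested.

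Foxm1, the transcription factor of the group, was at 8.27, 9.01, 8.84 and 7.70 in the TIC arrays and at 7.67, 8.05, 7.74 and 6.80 in the CD24- arrays. The order of the tumors was the same in both fractions, N260, N283, N251 and the pool. The difference of 0.89 ± 0.33 was 1.85-fold (limma adjusted p = 0.283, 0.0257 with the block and 0.0517 with the random block).

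**Figure D2:**
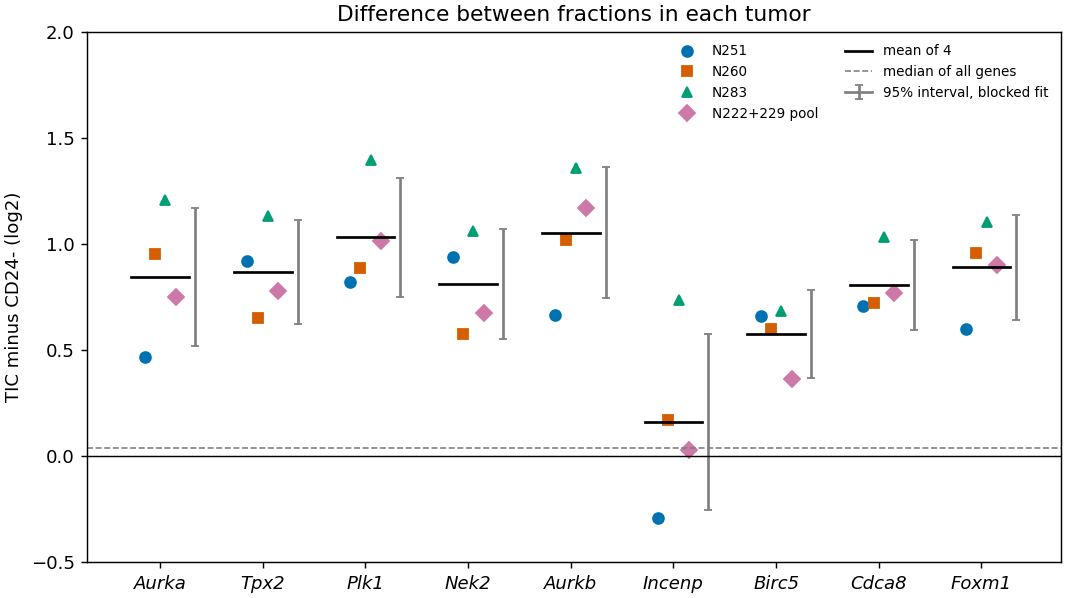
TIC minus CD24- difference in log2 units (y axis) for each member (x axis), with 1 point per tumor or pool, black bars for the mean of 4, grey bars for the 95% interval of the blocked fit, and a dashed line at the median of all genes, 0.04. N283 has the largest difference for all 9 members, and Incenp alone has a point below 0, at -0.29 in N251.

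The members differed between tumors as well as between fractions. The pool of N222 and N229 was lowest in both fractions for all 9 genes, and its TIC level was under the CD24- level of N260 for all 9. N260 was highest for 8 of the 9 genes in the CD24- fraction and for 7 in the TIC fraction. Over the TIC arrays the mean of the 9 members was highest in N260 (8.86), followed by N283 (8.79), N251 (8.24) and the pool (7.64), and over the CD24- arrays it was 8.13, 7.71, 7.63 and 6.92 in the same order. With this spread, 0 of the 9 members had all TIC arrays above all CD24- arrays, where 5.19% of all genes did, and 6 of the 9 did when the pool was left out, where 17.3% of all genes did. The SD between tumors, taken over the mean of both fractions, was 0.38 to 0.70 for the members, with a median of 0.56 against 0.16 for all genes. It was above the 90th percentile of all genes (0.36) for all 9 members. It exceeded the SD of the paired differences for 8 of the 9, the exception being Incenp (0.38 and 0.43).

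The fraction difference also varied by tumor. N283 showed the largest difference for all 9 members, and N251 the smallest for 6, N260 for 2 (Tpx2 and Nek2) and the pool for 1 (Birc5). Each tumor or pool had 1 array per fraction, so tumor and array cannot be told apart here.

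Across the 8 arrays the members rose and fell together. The correlations of the 28 pairs without Incenp were 0.937 to 0.997, and those of Incenp with the other eight 0.67 to 0.79. The arrays share tumors and fractions, so these 8 points are not independent, and the values are given as a description. Of 18701 other genes, the 5 with the highest Pearson correlation with the members' mean over 8 arrays were Pole, the catalytic subunit of DNA polymerase epsilon (0.997), Anln, an actin-binding protein of the cleavage furrow (0.995), Cdca5, or sororin, which protects sister chromatid cohesion (0.994), the histone gene H2bc3 (0.993) and Cenpu of the centromere (0.992). Their TIC minus CD24- differences were 0.78, 1.03, 0.89, 1.15 and 0.78. The genes were picked by correlation over these same arrays, so rises in the TIC fraction follow from the choice.

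The genes around the kinases moved unevenly. Of 14 measured relatives in the Aurora, Polo and NEK families 0 were called without the block and 0 with it, and their median difference was -0.00. Among them Aurkc, an Aurora kinase of germ cells, differed by -0.10 and Plk4, which starts centriole duplication, by 0.60 (limma blocked adjusted p = 0.457 and 0.130). Plk2, a Polo kinase induced by stress, differed by 0.60 and Nek3 by 0.35 (blocked adjusted p = 0.0960 and 0.0897, and 0.0646 and 0.0495 with the random block). Plk3 went the other way from Plk1. It was at 6.77, 6.83, 6.85 and 6.68 in the TIC arrays and at 10.55, 9.16, 8.11 and 7.97 in the CD24- arrays, so that the groups did not overlap (4.68% of all genes had all TIC arrays below all CD24- arrays). The difference of -2.16 ± 0.49 was 4.48-fold lower in the TIC fraction (limma adjusted p = 0.0998, 0.0742 with the block and 0.0227 with the random block, which called 3.04% of all genes lower). Its CD24- levels had the same order of tumors as the pan-leukocyte list (11.76, 10.93, 9.82 and 9.06 in N251, N260, N283 and the pool), and the part of leukocytes in it was not tested.

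Of 19 measured activators, anchors and substrates of the kinases 0 were called without the block, and 8 rose and 0 fell with it (median difference 0.70). Pbk, a mitotic protein kinase, was at 9.07, 9.71, 9.70 and 8.68 in the TIC arrays and at 6.92, 8.23, 8.06 and 7.42 in the CD24- arrays, with no overlap and a 3.10-fold difference (limma adjusted p = 0.0615, and 0.0189 with the block). The centralspindlin subunit gene Racgap1 and its partner Ect2, which set up cytokinesis, differed by 0.86 and 0.99 (blocked adjusted p = 0.0313 and 0.0198). Prc1, the Plk1-binding bundler of the central spindle, differed by 1.24 (blocked adjusted p = 0.0189). Numa1 of the spindle poles, also in the list, differed by -0.00. Cep192, the centrosomal platform of Aurora A and Plk1, had a mean difference of -0.18. Its sign was mixed, from -0.87 in N251 to 0.34 in N283.

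The list drawn up around recruitment of the passenger complex to centromeres also held genes with other roles, such as Cdca5 and Top2a. Of its 9 measured genes, 0 were called without the block and 3 rose with it (median difference 0.78). They were Sgo2a, a shugoshin (0.99), Cdca5 (0.89) and Top2a, a topoisomerase of mitotic chromosomes (1.21), with limma blocked adjusted p-values of 0.0189, 0.0268 and 0.0459. Haspin, whose histone mark docks survivin, differed by -0.03 (blocked adjusted p = 0.940).

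Of 23 measured partners and targets of Foxm1 and of MuvB 0 were called without the block, and 6 rose and 0 fell with it (median difference 0.58). Melk, a mitotic kinase, and Cenpf of the kinetochore differed by 0.84 and 0.81 (blocked limma adjusted p = 0.0434 for both), and Cks1b, a Cdk subunit, by 0.72 (0.0514). Cdk1, which phosphorylates Foxm1 and primes targets for Plk1, had the largest difference of the list in these arrays, 1.37 (0.0189). The subunit genes of MuvB itself, Lin9, Lin37, Lin52, Lin54 and Rbbp4, differed by 0.44, -0.01, -0.03, 0.13 and 0.21 and were not called in either fit.

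A further list held phosphatases, their regulators, inhibitors and degradation genes, not all of which oppose the kinases. Of its 23 measured genes, 0 were called without the block and 1 rose with it (median difference 0.16). It was Mastl, the Greatwall kinase that restrains a mitotic phosphatase, with a difference of 1.30 ± 0.40 (limma adjusted p = 0.196, and 0.0269 with the block). Its effector Arpp19 differed by 0.57 and Fzr1, which directs Aurora and Polo kinases to degradation, by 0.29 (blocked adjusted p = 0.0956 and 0.123). Of all 88 genes in these 5 lists, 18 rose and 0 fell with the block, which called 0.863% of all genes higher and 1.09% lower. With the random block 19 rose and 1, Plk3, fell.

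**Figure D3:**
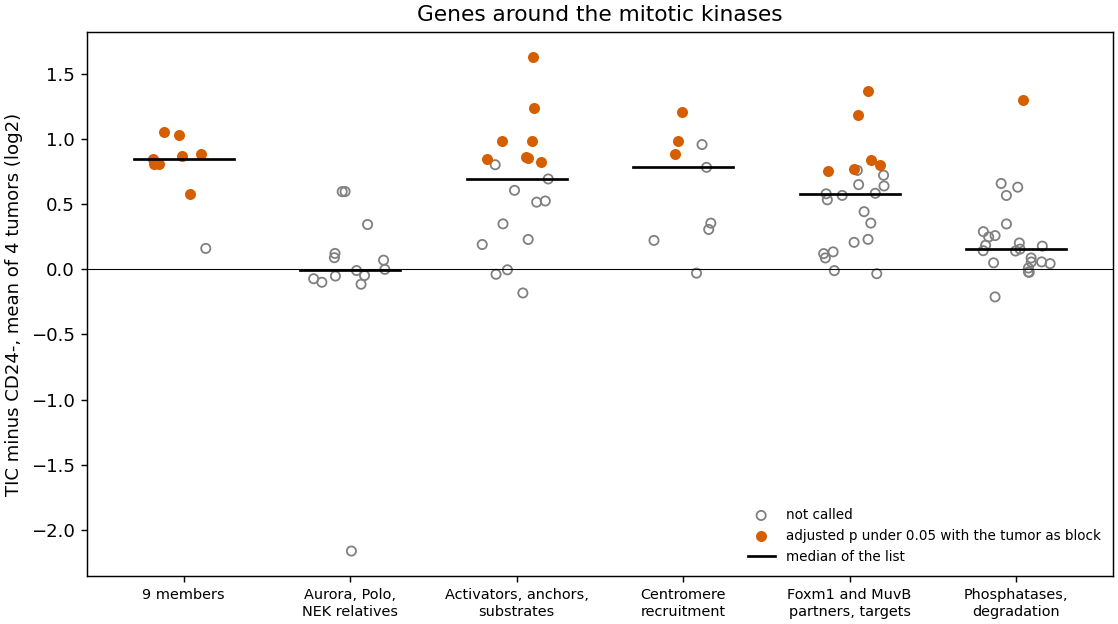
TIC minus CD24- difference, mean of 4 tumors in log2 units (y axis), for each member and for each measured gene of the 5 lists (x axis), with filled points for genes at an adjusted p under 0.05 with the tumor as block and bars for list medians. The medians are 0.85 for the members, -0.00 for the kinase relatives and 0.16 for the phosphatases and degradation genes, and the lowest point is Plk3 at -2.16.

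General proliferation genes were higher in the TIC fraction too. Of 12 genes, among them Top2a of the centromere list, 11 were higher in all 4 tumors, against 23.2% of all genes, and the median difference was 0.66. Without the block 0 were called. With it 7 rose, against 0.863% of all genes, and 4 rose with the random block, against 2.16%. Mki67, the Ki-67 antigen, differed by 0.72 (limma adjusted p = 0.360, 0.0424 with the block and 0.0838 with the random block), and Pcna, the replication clamp, by 0.34, with -0.08 in N251 (adjusted p = 0.712, and 0.208 with the block). Stmn1, a microtubule regulator, differed by 0.61 (blocked adjusted p = 0.0538). The list's mean difference was largest in N283 (0.85, beside 1.08 for the 9 members), and stood at 0.67 in N251, 0.61 in N260 and 0.68 for the pool, beside 0.61, 0.73 and 0.72 for the members. Its mean level was lowest in the pool and highest in N260 in both fractions, as was that of the members.

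Markers of other cells moved between the same fractions. Of 10 pan-leukocyte genes 6 fell in the TIC fraction without the block, where 0.742% of all genes were called lower, and their summed intensity was 3829 to 4228 in the TIC arrays and 8151 to 40529 in the CD24- arrays. Lcp1, an actin bundler of leukocytes, was bright in both fractions (11.65 and 11.95) and made up most of the summed TIC intensity. Laptm5 was at 6.58 and 11.84, and the median difference of the 10 genes was -4.18. Of 10 macrophage markers 9 fell (summed intensity 841 to 1120, and 12480 to 64587), with C1qb at 7.40 and 12.82 and Lyz2 at 6.33 and 12.10. Of 8 T and NK cell markers 3 fell (505 to 604, and 1978 to 19444), among them Cd3g, at 5.67 and 11.30, while Nkg7, at 6.43 and 10.70, had a limma adjusted p of 0.0504. No background level was measured, so no marker can be given as at 0. The pan-leukocyte mean differed by -4.84 (N251), -4.24 (N260), -3.18 (N283) and -2.27 (pool). The part of the leukocytes in the members' difference was not tested.

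Luminal epithelial genes were bright in both fractions. Of 10 genes 0 were called, with summed intensities of 26739 to 29062 in the TIC arrays and 13654 to 26882 in the CD24- arrays. Krt8 was at 12.73 and 12.30 and Krt18 at 12.22 and 12.06. The mean luminal difference was 0.99 (N251), 0.24 (N260), 0.015 (N283) and 0.13 (pool), and its part in the members' difference was not tested. Cd24a, the gene of the sort marker, was at 12.32 ± 0.21 (SD, n = 4) in the TIC and 11.22 ± 0.67 in the CD24- fraction, and Erbb2 at 12.37 ± 0.16 and 11.93 ± 0.52. Neither was called without the block or with the replicate block, and Cd24a was called with the random block (limma adjusted p = 0.148, 0.0691 and 0.0293). Among B cell, fibroblast, endothelial and erythroid markers 0 were called without the block, and with it 1 B cell gene, Cd79b, fell (-1.25). The other brightest markers of these lists, Pax5, Col1a1, Dcn, Cdh5, Pecam1 and Alas2, differed by 0.07, -0.18, -1.55, -0.21, -0.64 and 0.21.

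**Figure D4:**
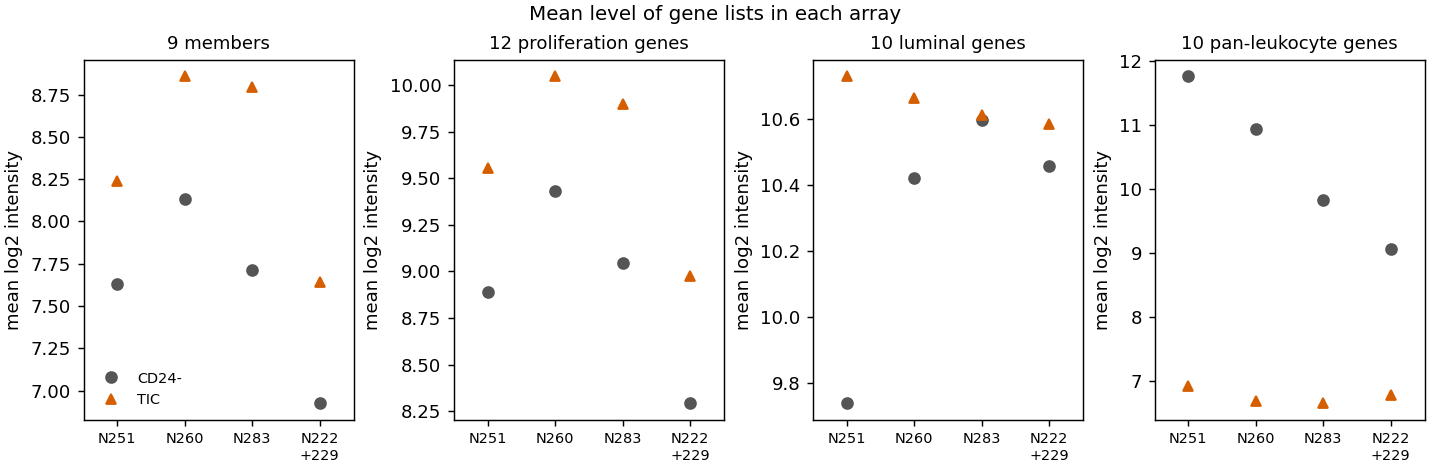
Mean log2 intensity (y axis, own scale in each panel) of the 9 members, 12 proliferation genes, 10 luminal genes and 10 pan-leukocyte genes in the TIC (triangles) and CD24- (circles) array of each tumor (x axis). Members and proliferation genes are lowest in the pool in both fractions, while the pan-leukocyte mean of the CD24- arrays runs from 11.76 in N251 to 9.06 in the pool.

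All 72 values of the members were above the lower quartile of genes on their array, and 52 were above the median gene. Aurkb and Plk1 were above it on all 8 arrays, and Incenp, Birc5 and Cdca8 on 4 each. The labels tie the arrays to separate tumors, apart from the pool. Precision is limited throughout by having 4 arrays in each fraction.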

How the data were processed

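The authors deposited log2 intensities per transcript cluster. RMA and Partek are the tools listed in the submitters' processing notes, with settings not given in the sources used here. Of 35556 rows, 21789 carried exactly 1 symbol, 1621 several and 12146 none. Gene identifiers of 21698 rows were found in a RefSeq table of GRCm38.p6, which renamed 0. Genes were represented by their brightest row, giving 19938 genes.

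Differences are TIC minus CD24-, fitted over all genes on 8 arrays with limma 3.58.1 in R 4.3.3 (lmFit, eBayes) without a block, with calls at an adjusted p (Benjamini-Hochberg) under 0.05. All adjusted p-values are limma's. Per the labels each tumor or pool gave both fractions. Over genes, the departures of its 2 arrays from the fraction means correlated at 0.32 in N251, 0.43 in N260, 0.30 in N283 and 0.56 for the pool, so a second fit has the tumor as replicate block. The fits were checked on simulated data.

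Members and lists were chosen with earlier results of these data known. The text names all members, the 3 genes of each pathway list with the smallest p, the 2 brightest CD24- genes of each marker list, the 5 genes most like the members, and Cd24a, Erbb2, Mki67 and Pcna. Aurkc, Plk4, Prc1, Cep192, Numa1, Haspin, Cdk1 and the MuvB subunits were named after their values were seen. Alternatives covered blocks, scalings, filters, the prior, array weights, row choice and left-out arrays and tumors. Exact symbol matches only were counted, so list genes without a row of 1 symbol were not analysed here. A further promoter window is not reported here.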

Additional observations from a re-analysis of the deposited data

Results flagged for a closer look

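Among 30 sets of 4 values (the TIC levels, the CD24- levels and the paired differences of each member and of their mean), 0 held a value far enough from the other three to pass Dixon's 95% critical value, where chance gives about 1 in 20.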

How the results depend on the processing

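Without the block, the count of called members stayed at 0 under every scaling, filter, prior, weighting and row choice and with any single array or tumor left out. It was 8 with the replicate block and 3 with a random block. When single arrays or tumors were left out, under all 3 fits, it ranged from 0 to 8, with 0 for the blocked fit without N260 or without N283. With the random block it was 0 without N251, N260 or N283 and 3 without the pool. Among all genes this fit called 4 higher without N260 and 95 without N283. It called more than these without the pool, and most without N251. The 0 without N260 thus stands beside a nearly empty set of genes called higher, and the 0 without N251 does not. Called genes over the 5 pathway lists numbered 18 with the replicate block (172 higher and 218 lower among all genes), 20 when the block was random (430 and 606), 5 under array weights (191 and 778) and 0 to 29 with arrays or tumors left out, the 29 in the blocked fit without N251 (360 and 480). The random-block fits without a tumor were chosen after seeing the data. Members whose groups do not overlap numbered 0 to 6 with arrays or tumors left out. Without both arrays of the pool there were 6, where 17.3% of all genes had every TIC array above every CD24- array. With all arrays that share was 5.19%. It was not computed for the other left-out settings, so their counts cannot be read against all genes. The Incenp difference ranged from -0.031 (without N283) to 0.37 when arrays or tumors were left out; the cause was not tested. The other eight members kept their direction in all settings. The mean difference of the members moved by less than its SD in every setting. This mean is taken from the paired values, so the blocks, the prior and the array weights could not change it. Nor could the choice of rows, since each member had a single row. The filter at the median level removed Incenp, Birc5 and Cdca8. The Incenp call was the same with and without the replicate block.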
